A study of Mus musculus with 8 samples.

Results

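The chemokine genes of mouse liver are described here, together with the genes of the receptors that bind chemokines. They were chosen by symbol, as genes of the count table named *Ccl*, *Cxcl*, *Cx3c*, *Ccr*, *Cxcr* or *Ackr* with a number, plus *Ccrl2*. Described here are 40 of the 19267 genes in the table, of which 19 reached a mean of 10 read counts over the 8 libraries and were tested. The libraries came from livers of male C57BL/6 mice at 9 weeks of age, after 21 days on a Lieber-DeCarli liquid diet, with 2 libraries in each of 4 groups. The EtOH diet held 5% (w/v) alcohol, and the Control diet held maltose dextrin of equal calories. *Elf4*-/- mice were Elf4fl/fl-Villin-Cre mice, in which Cre under the villin promoter deletes *Elf4*, a transcription factor gene, from intestinal epithelium, so that the liver itself was not targeted. The mice called WT carried Cre as well, according to the study's methods. Groups are named by genotype and then diet, as in WT EtOH or *Elf4*-/- Control.

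Chemokines are small secreted proteins that attract leukocytes along concentration gradients. They act through receptors coupled to G proteins, while atypical receptors bind and remove chemokines without that signal. In the liver, Kupffer cells, endothelium, stellate cells and hepatocytes can all make chemokines, and circulating monocytes, neutrophils and lymphocytes carry many of the receptors. The comparisons ask whether chemokine transcripts in liver differed with the alcohol diet, with loss of *Elf4* in the gut, and with both together.

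Library totals ran from 6171051 to 9157362 counts. Levels are given as CPM, read counts relative to the library total after TMM scaling, a correction for differences in library composition. *Elf4* had 6 to 36 counts per liver library, with a log2 fold change of *Elf4*-/- over WT under EtOH of -0.07 ± 0.49 (SE). Since the deletion is in the gut, this value does not check the genotype labels. The summed level of 6 hepatocyte genes was 53530 and 74230 CPM under Control and 43040 and 36130 under EtOH in WT, and 65200 and 72780 under Control and 43480 and 57380 under EtOH in *Elf4*-/-. This sum was lower under EtOH without overlap in both genotypes, but its genes did not move together. With EtOH in WT, the log2 fold change was -2.33 for *Apoa1* (adjusted p = 0.0067, edgeR) and 1.08 for *Cyp2e1* (adjusted p = 0.028, edgeR). The other genes of the list did not pass. The part of hepatocyte content in the results below was not tested. The labels do not say whether the 2 libraries of a group came from separate animals, and p-values measure the spread between these libraries. The tested chemokine genes varied more between the 2 libraries of a group than a set of genes with higher counts. Between replicates, log2 levels differed with an SD of 0.734 to 1.49 over the 19 tested chemokine genes. The SD was 0.354 to 0.681 over 9398 genes, which were kept by a higher limit on mean counts. Both maxima were in *Elf4*-/- EtOH. The 19 genes included means down to 10 counts, and the part of low counts in their wider spread was not tested.

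The 19 tested genes comprised 14 ligands, 3 signalling receptors and 2 atypical receptors. The ligands were *Ccl2*, *Ccl5*, *Ccl6*, *Ccl9*, *Ccl21a*, *Ccl24*, *Ccl25*, *Ccl27a*, *Cxcl1*, *Cxcl9*, *Cxcl10*, *Cxcl11*, *Cxcl12* and *Cxcl16*. The signalling receptors were *Ccr2*, *Cx3cr1* and *Cxcr5*, and the atypical receptors were *Ackr2* and *Ackr4*. Below the mean of 10 counts were the ligands *Ccl3*, *Ccl4*, *Ccl7*, *Ccl19*, *Ccl22*, *Cx3cl1*, *Cxcl2*, *Cxcl13*, *Cxcl14* and *Cxcl17*. Also below it were the signalling receptors *Ccr1*, *Ccr3*, *Ccr7*, *Ccr9*, *Cxcr2*, *Cxcr3*, *Cxcr4* and *Cxcr6* and the atypical receptors *Ackr1*, *Ackr3* and *Ccrl2*. Just inside the limit were *Cx3cr1* with a mean of 10 counts and *Ccl2* with 11.25, and just outside it *Cxcl13* with 9.25 and *Ackr1* and *Ccrl2* with 8 each.

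Measured as CPM per kilobase of exon over the 8 libraries, the highest levels were those of *Cxcl12* at 22.2, *Cxcl1* at 20.5, *Ccl9* at 9.76, *Ackr4* at 8.70 and *Ccl27a* at 6.60. This order varied between groups. In WT Control *Cxcl1* was at 43.8 and *Cxcl12* at 19.3, while in WT EtOH *Cxcl12* at 25.2, *Ackr4* at 13.3 and *Ccl6* at 10.2 exceeded *Cxcl1* at 6.77. *Cxcl12*, the ligand of CXCR4 that retains blood cell precursors in their niches, alone took 31.4% to 53.6% of the counts of all 40 genes in a library. Among signalling receptors the highest level per kilobase was that of *Cxcr5*, at 0.945, and *Cx3cr1* was the lowest tested gene at 0.285. All 3 tested signalling receptors were below 1 CPM per kilobase. Many of the genes lie next to each other on the genome (GRCm38), with 10 on chromosome 9, 9 on chromosome 11 and 7 on chromosome 5.

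The alcohol diet altered the tested chemokine genes in both directions in WT livers. Of the 19, 4 were higher under EtOH and 3 lower at an adjusted p under 0.05 in edgeR's quasi-likelihood test, 36.8% beside 22.8% of all genes tested (11.6% higher and 11.2% lower). Without a test, 8 of the 19 had both WT EtOH libraries above both WT Control libraries and 5 had both below, beside 34.1% and 33.3% of all genes. The higher ones were the ligands *Ccl6*, *Ccl24* and *Cxcl16* and the atypical receptor *Ackr4*, and the lower ones were the ligands *Cxcl1*, *Cxcl11* and *Ccl27a*. The median log2 fold change was 0.39 over the 19 genes and 0.01 over all genes. Scaling by library totals in place of TMM gave 5 higher and 2 lower, with *Cxcl10* gained and *Ccl27a* lost. The calls depended on single libraries. Without WT Control replicate 1 the test called 2 (*Ccl24* and *Cxcl16*), beside 11.5% of all genes, and without replicate 2 it called 3 (*Ccl24*, *Cxcl1* and *Cxcl11*), beside 13.8%. Without WT EtOH replicate 1 it called 1 (*Cxcl16*), beside 7.43%, and without replicate 2 it called 2 (*Ccl24* and *Ccl6*), beside 4.74%. In these fits the remaining library of a group was assumed to vary like the other groups. No sign changed among the 7.

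In *Elf4*-/- livers, edgeR called 0 of the 19 genes for diet, beside 3.28% of all genes, with 8 at an unadjusted p under 0.05 beside 21.9% of all genes. DESeq2 called 3, *Ccl6*, *Ccl24* and *Cxcl10*, all higher, beside 6.11% of all genes. Without *Elf4*-/- EtOH replicate 2, edgeR called 7 (*Ccl2*, *Ccl6*, *Ccl9*, *Ccl24*, *Cxcl10* and *Ackr4* higher, *Ccl27a* lower), beside 12.8% of all genes, and without replicate 1 it called *Cxcl1* alone, as lower, beside 1.61%. The diet effect averaged over the genotypes was called for 7 of 19 genes (5 higher, 2 lower), beside 29.5% of all genes (15.1% higher, 14.4% lower). These 7 were *Ccl6*, *Ccl24*, *Cxcl10*, *Cxcl16* and *Ackr4*, which rose, and *Cxcl1* and *Ccl27a*, which fell. All 4 EtOH libraries lay above all 4 Control libraries for 3 of the 19 genes (*Ccl6*, *Ccl24* and *Cxcl10*) and below them for 1 (*Ccl27a*), beside 14.5% and 14.3% of all genes. This average shares its libraries with the diet effects within each genotype.

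**Figure D1:**
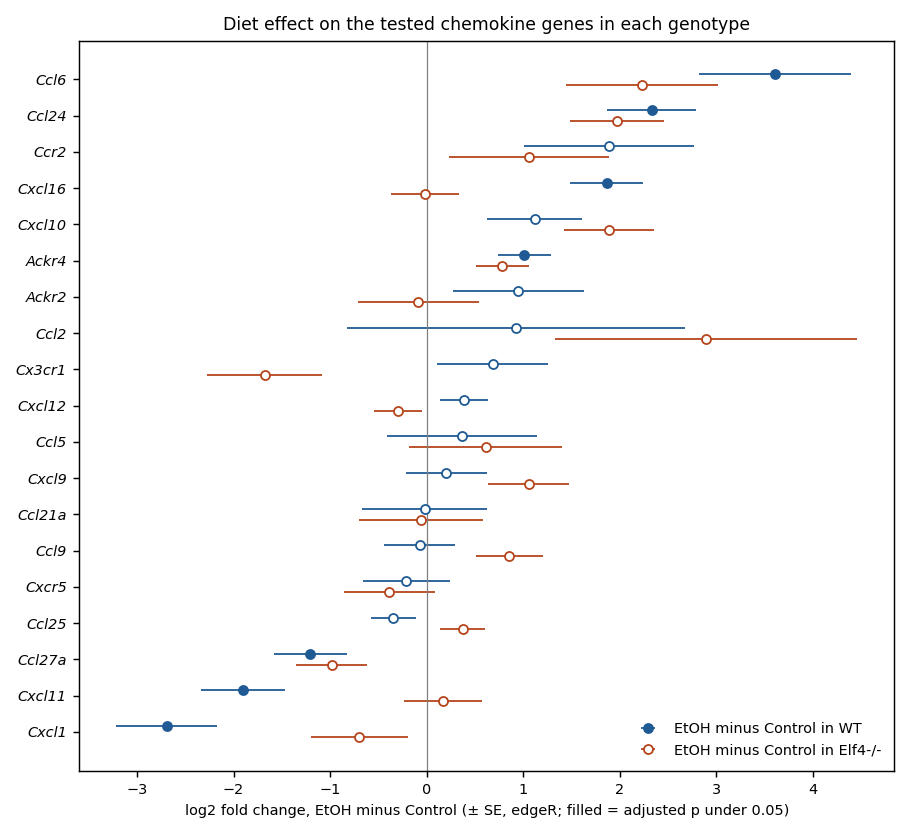
The log2 fold change of EtOH over Control (x axis) is plotted for each of the 19 tested chemokine genes (y axis), in WT livers (blue) and in *Elf4*-/- livers (orange), with bars for the SE of the edgeR fit and filled points for an adjusted p under 0.05. The 7 filled points are all in WT, from *Ccl6* at 3.61 to *Cxcl1* at -2.69, and the point of *Cxcl16* is at 1.87 in WT and -0.02 in *Elf4*-/-.

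No chemokine gene passed the threshold for genotype or for the interaction of genotype and diet in edgeR. Under EtOH, *Elf4*-/- against WT gave 0 of 19, beside 0.145% of all genes, with 5 at an unadjusted p under 0.05 beside 10.7%, while DESeq2 called 2 (*Ccl9* and *Cxcl11*, both higher) beside 1.37%. Under Control it gave 0, beside 0.0152% of all genes, with 2 at an unadjusted p under 0.05 beside 7.36%, and 0 in DESeq2 beside 0.563%. Averaged over the diets it gave 0, beside 0.129%, with 3 at an unadjusted p under 0.05 beside 8.04% and 1 (*Ccl9*) in DESeq2 beside 0.89%. For the interaction, the difference between the diet effects of the 2 genotypes, edgeR gave 0 beside 0% of all genes, with 4 of the 19 at an unadjusted p under 0.05 beside 10.3%, and 0 in DESeq2 beside 0.768%. Without *Elf4*-/- EtOH replicate 2 it called *Cxcl1*, beside 0.799% of all genes. With all 8 libraries, a difference between the genotypes in the response to alcohol was not detectable for these genes.

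*Cxcl1* and *Cxcl2*, which attract neutrophils through CXCR2, are neighbours within 14.7 kb of chromosome 5. *Cxcl9*, *Cxcl10* and *Cxcl11*, the interferon-inducible ligands of CXCR3 on T and NK cells, lie within 44.1 kb of the same chromosome. *Cxcl1* and *Cxcl10* moved in opposite directions with diet, and *Cxcl2* is the neighbour of *Cxcl1* with few reads, so the 250 bases before each of their RefSeq start sites in GRCm38.p6 are shown, 5′ to 3′ on the gene's strand. Capitals mark matches to the kB-type motif GGGNNNTTCC or to the interferon response type motif GAAANNGAAA, each searched on both strands. *Cxcl1* spans chr5:90890995-90891244 on the plus strand, *Cxcl2* chr5:90903649-90903898 on the plus strand, and *Cxcl10* chr5:92348890-92349139 on the minus strand.
Cxcl1: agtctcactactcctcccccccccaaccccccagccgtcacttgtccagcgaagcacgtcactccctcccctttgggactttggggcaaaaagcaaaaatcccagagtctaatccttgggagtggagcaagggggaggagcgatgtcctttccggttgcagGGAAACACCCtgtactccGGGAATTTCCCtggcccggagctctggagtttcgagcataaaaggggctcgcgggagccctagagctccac
Cxcl2: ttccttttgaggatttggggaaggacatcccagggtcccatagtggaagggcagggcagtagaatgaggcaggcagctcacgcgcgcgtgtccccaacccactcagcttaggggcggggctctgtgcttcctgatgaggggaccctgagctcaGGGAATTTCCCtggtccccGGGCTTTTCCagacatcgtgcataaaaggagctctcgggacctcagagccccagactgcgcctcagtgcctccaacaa
Cxcl10: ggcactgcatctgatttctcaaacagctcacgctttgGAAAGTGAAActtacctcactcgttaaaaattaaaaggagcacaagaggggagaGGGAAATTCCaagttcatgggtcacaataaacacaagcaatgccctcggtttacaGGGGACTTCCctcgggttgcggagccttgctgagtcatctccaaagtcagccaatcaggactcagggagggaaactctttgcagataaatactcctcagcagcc
The kB-type motif was found in 4.65% and the interferon response type in 2.98% of the 32851 RefSeq promoter windows of this length. Of the 30 chemokine genes with a window, 5 held the kB type, *Ccl9*, *Ccr3*, *Cxcl1*, *Cxcl2* and *Cxcl10*, and 3 the interferon response type, *Ccl19*, *Cxcl10* and *Cxcl14*. In *Cxcl1* the kB-type matches began 89, 71 and 70 bases before the start site, the last 2 overlapping as the strands of 1 palindrome-like run. *Cxcl2* held the same run beginning 97 and 96 bases before its start, and a further match at 78. In *Cxcl10* the kB-type matches began at 159 and 104 bases and the interferon response type at 213. A match describes the letters only. The tested genes *Ccl2*, *Ccl5*, *Ccl24*, *Cxcl11*, *Cxcl16* and *Cxcr5* had no window.

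*Cxcl1* was the most abundant CXCR2 ligand per kilobase. Its level was 107 and 57.01 CPM under Control and 11.8 and 13.6 under EtOH in WT, and 30.8 and 41.6 under Control and 35.4 and 9.51 under EtOH in *Elf4*-/-. Both WT EtOH libraries lay below every Control library of either genotype. The lower *Elf4*-/- EtOH library was the lowest of all, and the higher lay between the *Elf4*-/- Control libraries. *Cxcl1* fell by 2.69 ± 0.52 (SE) on the log2 scale in WT (6.46-fold lower, adjusted p = 0.00799, edgeR), the smallest adjusted p of the 19 genes in that comparison. Its diet difference in *Elf4*-/- was -0.70 ± 0.50 (adjusted p = 0.444, edgeR), and -1.92 without *Elf4*-/- EtOH replicate 1 against -0.04 without replicate 2. Under Control, its level in *Elf4*-/- was -1.19 ± 0.49 on the log2 scale from WT (adjusted p = 0.648, edgeR), with no overlap between the libraries. The interaction was 1.995 ± 0.71 (adjusted p = 0.390, edgeR).

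The CXCR3 ligands did not move together in WT livers. *Cxcl10* measured 2.79 and 3.11 CPM under Control and 5.58 and 7.25 under EtOH in WT, and 4.19 and 1.63 under Control and 14.5 and 7.93 under EtOH in *Elf4*-/-. All 4 EtOH libraries were above all 4 Control libraries. Averaged over the genotypes *Cxcl10* rose by 1.503 ± 0.34 (SE) on the log2 scale (2.83-fold, adjusted p = 0.0100, edgeR), with 1.12 ± 0.49 in WT and 1.89 ± 0.47 in *Elf4*-/- (adjusted p = 0.128 and 0.0592). *Cxcl10* shares 133 exon bases with *Art3* on the opposite strand, whose averaged diet difference was 1.53 ± 0.39 (adjusted p = 0.0172, edgeR). The strand setting of the counting is not given in the sources used here, so reads of the shared bases cannot be assigned to one of the genes.

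*Cxcl11* measured 24.8 and 13.2 CPM under Control and 4.56 and 5.51 under EtOH in WT, and 15.8 and 13.8 under Control and 9.88 and 23.3 under EtOH in *Elf4*-/-. The WT EtOH libraries were the lowest of the 8. The lower *Elf4*-/- EtOH library was below every Control library, and the higher was within the Control range. *Cxcl11* fell by 1.90 ± 0.43 on the log2 scale with EtOH in WT (3.74-fold lower, adjusted p = 0.0145, edgeR). The difference in *Elf4*-/- was 0.17 ± 0.40 (adjusted p = 0.837), and its sign turned with the library left out. Under EtOH, *Elf4*-/- was 1.72 ± 0.43 above WT on the log2 scale (adjusted p = 0.204, edgeR), and past the threshold without *Elf4*-/- EtOH replicate 1, at 2.20 with an adjusted p of 0.0212. The interaction was 2.07 ± 0.59 (adjusted p = 0.308, edgeR). GENCODE M21 lists *Cxcl11* as a polymorphic pseudogene, a gene that is intact in some mouse strains only. Reads of *Cxcl11* in these mice therefore need not stand for a working ligand. Of its exon bases, 1582 overlap the pseudogene *Gm2673*, which had 0 to 10 counts per library. *Cxcl9*, the third member of the cluster, ranged from 4.84 to 12.2 CPM and passed no test with all libraries kept. Its diet difference was 1.06 ± 0.42 on the log2 scale in *Elf4*-/-, with no overlap, and 0.21 ± 0.42 in WT, with overlap (adjusted p = 0.181 and 0.750, edgeR).

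**Figure D2:**
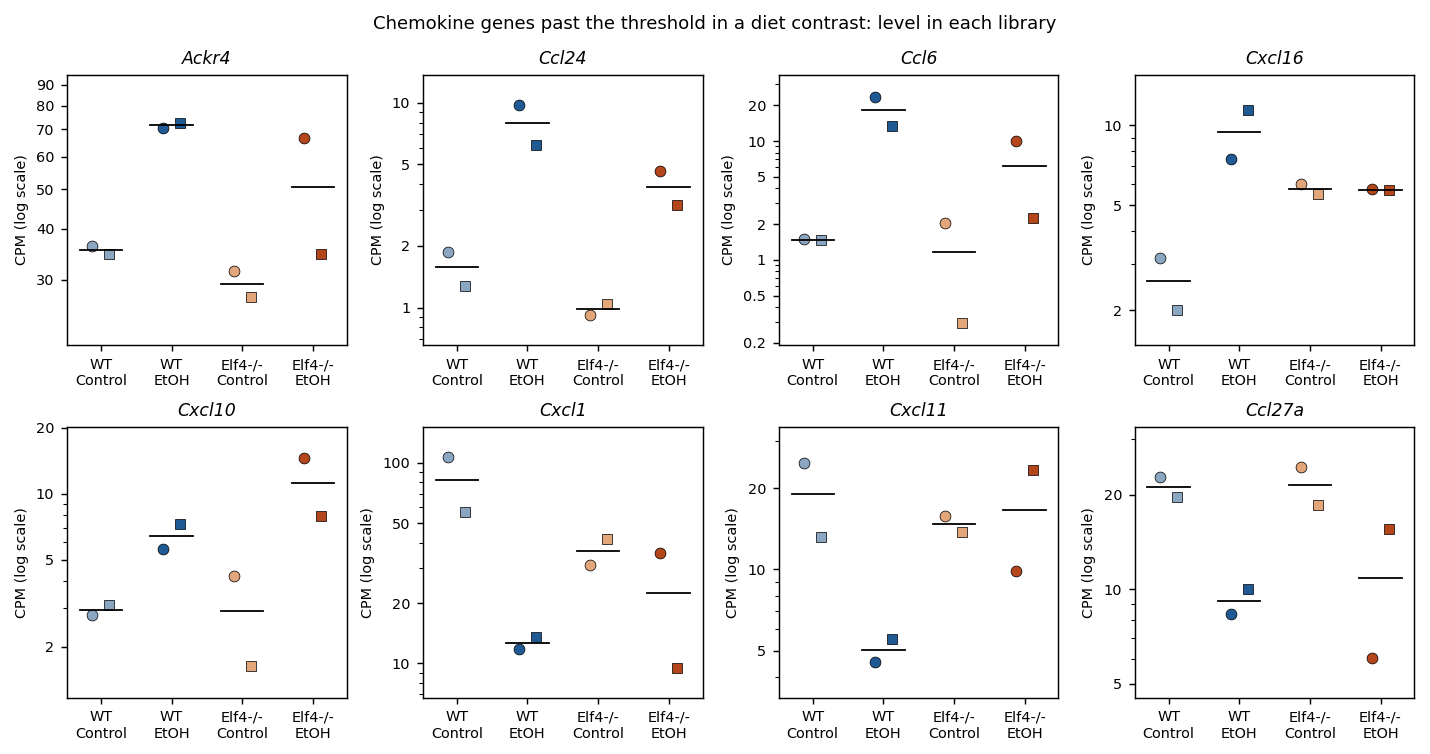
Level in CPM (log y axis) of the 8 chemokine genes past the threshold in WT or in the average over genotypes, by group (x axis), with a circle for replicate 1, a square for replicate 2 and a line for the mean of the 2. In WT EtOH, *Ackr4*, *Ccl24* and *Ccl6* had both points above both WT Control points and *Cxcl1*, *Cxcl11* and *Ccl27a* had both below, while the *Elf4*-/- EtOH points of *Cxcl1* were at 35.4 and 9.51 CPM.

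*Ccl6* and *Ccl9* encode myeloid CC chemokines that act on CCR1, and lie within 20.2 kb of chromosome 11. They behaved differently. *Ccl6* measured 1.49 and 1.46 CPM under Control (8 counts in each) and 23.3 and 13.3 under EtOH in WT, and 2.04 and 0.297 under Control and 10.04 and 2.25 under EtOH in *Elf4*-/-. Each EtOH library was above all Control libraries, and the lowest value rested on 2 counts. *Ccl6* had the largest rise among the tested chemokine genes in WT, 3.61 ± 0.79 (SE) on the log2 scale (12.2-fold, adjusted p = 0.0122, edgeR). For *Elf4*-/- the difference was 2.23 ± 0.79 (adjusted p = 0.141, edgeR), and 0.80 without *Elf4*-/- EtOH replicate 1 (adjusted p = 0.633). Averaged over the genotypes it rose by 2.92 ± 0.56 (adjusted p = 0.00487, edgeR), with 2.21 without *Elf4*-/- EtOH replicate 1 and 3.94 without *Elf4*-/- Control replicate 1.

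*Ccl9* measured 13.2 and 24.7 CPM under Control and 19.8 and 16.3 under EtOH in WT, and 26.9 and 31.3 under Control and 70.2 and 35.3 under EtOH in *Elf4*-/-. Every *Elf4*-/- library was above every WT library, and 1 of the 19 tested genes had this order, beside 1.16% of all genes. The WT groups overlapped, with a diet difference of -0.07 ± 0.36 on the log2 scale (adjusted p = 0.903, edgeR). *Elf4*-/- was 1.55 ± 0.36 above WT under EtOH (adjusted p = 0.164), 0.62 ± 0.36 under Control (adjusted p = 0.774) and 1.08 ± 0.25 on average (2.12-fold, adjusted p = 0.206, edgeR). Without *Elf4*-/- EtOH replicate 2 the average and the difference under EtOH passed the threshold in edgeR, and without replicate 1 the difference under EtOH was 0.97. *Ccl5*, which attracts T cells and monocytes, ranged from 0.594 to 3.65 CPM, with overlap between WT Control and WT EtOH, and passed no test.

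*Ccl24*, also called eotaxin-2, draws eosinophils through CCR3. Its level was 1.86 and 1.28 CPM under Control and 9.76 and 6.23 under EtOH in WT, and 0.920 and 1.04 under Control and 4.62 and 3.17 under EtOH in *Elf4*-/-. The diet groups were apart in both genotypes, and each *Elf4*-/- group lay below the WT group on the same diet. *Ccl24* rose by 2.33 ± 0.46 (SE) on the log2 scale in WT (5.03-fold, adjusted p = 0.00880, edgeR) and by 2.15 ± 0.34 on average (4.45-fold, adjusted p = 0.00205), the smallest adjusted p of the 19 genes in that comparison. Its difference in *Elf4*-/- was 1.98 ± 0.49 (adjusted p = 0.0592, edgeR), so the estimates in the 2 genotypes were close. The genotype difference under EtOH was -1.04 ± 0.41 (adjusted p = 0.409, edgeR), and -0.86 ± 0.34 averaged over the diets (adjusted p = 0.557).

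Of the homing chemokines, which guide lymphocytes to particular tissues, *Ccl27a*, best known from skin, was the highest per kilobase. It measured 22.7 and 19.7 CPM under Control and 8.37 and 10 under EtOH in WT, and 24.5 and 18.6 under Control and 6.05 and 15.6 under EtOH in *Elf4*-/-. The 4 EtOH libraries all lay below the 4 Control libraries. *Ccl27a* fell by 1.20 ± 0.38 on the log2 scale in WT (2.30-fold lower, adjusted p = 0.0451, edgeR) and by 1.09 ± 0.26 on average (adjusted p = 0.0136), with -0.98 ± 0.37 in *Elf4*-/- (adjusted p = 0.162). The WT call was lost in 6 of 8 fits that left out a library. Mouse genomes hold a near-identical copy, *Ccl27b*, and how the counting treated reads that match both is not given in the sources used here, so this value is uncertain. The same holds for *Ccl21a* and its copies *Ccl21b* and *Ccl21c*. *Ccl21a*, at 1.11 to 3.43 CPM, and the gut and thymus chemokine *Ccl25*, at 9.71 to 14.0 CPM, passed no test.

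*Cxcl16* is made as a membrane-bound protein and is the ligand of CXCR6, found on T cells and NKT cells. It measured 3.17 and 2.01 CPM under Control and 7.48 and 11.4 under EtOH in WT, and 6.03 and 5.49 under Control and 5.74 and 5.68 under EtOH in *Elf4*-/-. The 4 *Elf4*-/- libraries sat close together, above both WT Control libraries and below both WT EtOH libraries. *Cxcl16* rose by 1.87 ± 0.38 (SE) on the log2 scale with EtOH in WT (3.65-fold, adjusted p = 0.00922, edgeR), and its difference in *Elf4*-/- was -0.02 ± 0.35 (adjusted p = 0.982). The interaction of -1.89 ± 0.51 had the smallest p of the 19 genes and did not pass (adjusted p = 0.287, edgeR). Under Control, *Elf4*-/- was 1.15 ± 0.39 above WT (adjusted p = 0.526, edgeR).

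*Cxcl16* shares 552 of its 3021 exon bases with *Zmynd15* on the opposite strand. *Zmynd15* had 55 and 27 counts under Control and 108 and 207 under EtOH in WT, and 186 and 88 under Control and 82 and 107 under EtOH in *Elf4*-/-. It rose by 1.20 ± 0.37 on the log2 scale with EtOH in WT (adjusted p = 0.0429, edgeR), and its interaction was -1.45 ± 0.51 (adjusted p = 0.382). The part of shared reads in the values of *Cxcl16* was not tested.

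*Cxcl12*, the highest of the family, measured 130 and 184 CPM under Control and 212 and 200 under EtOH in WT, and 213 and 188 under Control and 135 and 193 under EtOH in *Elf4*-/-. The libraries differed little beside those of the genes above. EtOH minus Control was 0.39 ± 0.25 (SE) on the log2 scale in WT and -0.29 ± 0.25 in *Elf4*-/-, with adjusted p = 0.285 and 0.527 in edgeR. Summed over all ligands, the level was 315 to 349 CPM in every library. Without *Cxcl12* the sum was less even, at 204.2 and 155.5 CPM under Control and 124.5 and 115.1 under EtOH in WT. In *Elf4*-/- the sum without *Cxcl12* was 136.2 and 135.2 under Control and 206 and 134.9 under EtOH.

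*Ccl2* encodes the main ligand of CCR2, which calls monocytes out of the blood, and the study also measured this transcript by qPCR. Its counts were 5 and 2 under Control and 2 and 21 under EtOH in WT, and 9 and 0 under Control and 51 and 0 under EtOH in *Elf4*-/-. One library, *Elf4*-/- EtOH replicate 1, held 56.7% of all *Ccl2* counts, at 8.12 CPM or 3.79 times the next library. Replicate 2 of the same group had 0 counts, which allows up to 3 counts or 0.396 CPM, counting error only. The fitted diet difference in *Elf4*-/- was 2.90 ± 1.57 (SE) on the log2 scale (adjusted p = 0.306, edgeR). It was 3.90 ± 1.05 without *Elf4*-/- EtOH replicate 2 (adjusted p = 0.0375), and without replicate 1 the group had no count. Under EtOH the genotype difference was 1.66 ± 1.39 (adjusted p = 0.742, edgeR). The other CCR2 ligand in the table, *Ccl7*, which lies beside *Ccl2* on chromosome 11 within 12 kb, had 7 counts in *Elf4*-/- EtOH replicate 1 and 0 in replicate 2.

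The genes of Kupffer cells, the resident macrophages of the liver, also rose with EtOH in WT. The summed level of *Clec4f*, *Vsig4*, *Timd4*, *Cd5l*, *Marco* and *Adgre1*, all 6 of the list, was 199 and 150 CPM under Control and 560 and 506 under EtOH in WT, and 142 and 138 under Control and 199 and 188 under EtOH in *Elf4*-/-. None of the 6 was at 0 in a library, and each rose with EtOH in WT, by 1.03 to 4.66 on the log2 scale. Under EtOH, *Elf4*-/- was below WT for *Clec4f*, at -1.32 (adjusted p = 0.0431, edgeR), and for *Cd5l*, at -1.69 (adjusted p = 0.0280, edgeR), while the other 4, at -1.40 to -1.72, did not pass. Per 100 CPM of this sum, a ratio chosen after the values were seen, *Ccl24* was 0.853 to 0.936 in WT Control, 1.23 to 1.75 in WT EtOH, 0.650 to 0.752 in *Elf4*-/- Control and 1.69 to 2.32 in *Elf4*-/- EtOH. *Ccl6* per 100 CPM of the sum was 0.749 to 0.975, 2.62 to 4.17, 0.215 to 1.44 and 1.20 to 5.04 in the same order. The EtOH and Control libraries of a genotype stayed apart for *Ccl24*, and in WT for *Ccl6*. *Cxcl16* per 100 CPM of the sum was 1.59 and 1.34 under Control and 1.34 and 2.26 under EtOH in WT, where the diet groups overlapped, and 4.26 and 3.97 under Control and 2.88 and 3.03 under EtOH in *Elf4*-/-. In *Elf4*-/-, the lower *Ccl6* ratio under EtOH was below the higher one under Control. The part of Kupffer cell content in these results was not tested. In bulk liver, fewer cells of a type and less RNA per cell cannot be told apart.

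**Figure D3:**
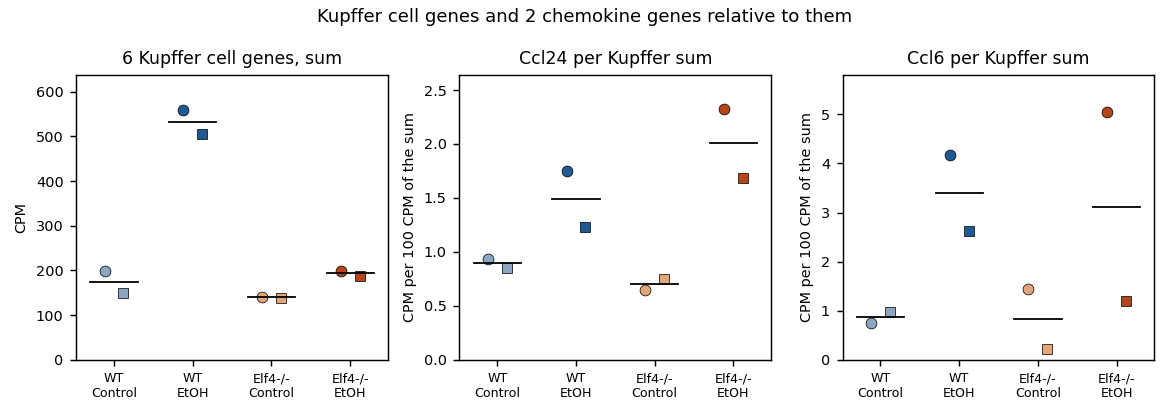
Summed CPM of 6 Kupffer cell genes (first panel) and the CPM of *Ccl24* and *Ccl6* per 100 CPM of that sum (other panels), by group (x axis), with a circle for replicate 1, a square for replicate 2 and a line for the mean, all y axes from 0. The sum stood at 506 to 560 in WT EtOH and at 199 or below elsewhere, and the *Ccl24* ratio lay at 0.936 or below in the Control groups and at 1.23 or above in the EtOH groups.

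*Cx3cr1*, the fractalkine receptor of monocytes and resident macrophages, had few reads. Its counts were 5 and 6 under Control and 13 and 16 under EtOH in WT, and 21 and 11 under Control and 5 and 3 under EtOH in *Elf4*-/-. In CPM, WT EtOH was above WT Control and *Elf4*-/- EtOH below *Elf4*-/- Control, without overlap in either case. EtOH minus Control was 0.68 ± 0.57 (SE) on the log2 scale in WT and -1.68 ± 0.60 in *Elf4*-/- (adjusted p = 0.415 and 0.143, edgeR). The difference between them was -2.36 ± 0.83 (adjusted p = 0.382, edgeR). Per 100 CPM of the Kupffer cell sum, *Cx3cr1* was 0.468 and 0.731 under Control and 0.2945 and 0.323 under EtOH in WT. In *Elf4*-/- this ratio was 1.52 and 1.18 under Control and 0.400 and 0.211 under EtOH, so it was lower under EtOH in both genotypes. For *Cx3cr1*, the part of Kupffer cell content was not tested. Its ligand gene *Cx3cl1* had 1 to 5 counts per library and was not tested. *Ccr2*, the receptor of inflammatory monocytes, ranged from 0.365 to 6.53 CPM. Its diet difference was 1.89 ± 0.88 in WT and 1.06 ± 0.83 in *Elf4*-/- (adjusted p = 0.146 and 0.484, edgeR). The summed level of 6 monocyte genes was 5.40 and 7.31 CPM under Control and 23.8 and 24.1 under EtOH in WT, and 7.87 and 6.68 under Control and 17.0 and 8.45 under EtOH in *Elf4*-/-. Most of the WT sum was *Plac8*, the only gene of the list tested, with 16 and 29 counts under Control and 135 and 190 under EtOH. *Ly6c2* and *Ms4a4c* also had more counts under EtOH in WT. *Vcan*, *F13a1* and *Chil3*, at 1 to 6 counts in each WT library, overlapped between the diets. *Chil3* of that list was at 0 in *Elf4*-/- Control replicate 1 and *Elf4*-/- EtOH replicate 2, and *F13a1* in *Elf4*-/- Control replicate 2. The part of monocyte content in the *Ccr2* values was not tested. *Cxcr5*, the receptor that leads B cells into follicles, measured 4.10 and 3.65 CPM under Control and 3.55 and 3.16 under EtOH in WT, and 2.86 and 3.27 under Control and 1.43 and 3.17 under EtOH in *Elf4*-/-. Its diet difference was -0.21 ± 0.45 in WT and -0.39 ± 0.47 in *Elf4*-/- (adjusted p = 0.769 and 0.677, edgeR).

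*Ackr4* encodes an atypical receptor that removes CCL19, CCL21 and CCL25. It measured 36.3 and 34.7 CPM under Control and 70.7 and 72.7 under EtOH in WT, and 31.4 and 27.2 under Control and 66.6 and 34.6 under EtOH in *Elf4*-/-. The WT replicates were nearly alike, while the 2 *Elf4*-/- EtOH libraries lay at the level of WT EtOH and of WT Control. *Ackr4* rose by 1.01 ± 0.28 (SE) on the log2 scale in WT (2.02-fold, adjusted p = 0.0278, edgeR) and by 0.90 ± 0.19 on average (adjusted p = 0.00848). In *Elf4*-/- the difference was 0.78 ± 0.27 (adjusted p = 0.139, edgeR), with 1.16 without *Elf4*-/- EtOH replicate 2 and 0.24 without replicate 1. *Ackr4* shares 479 of 5380 exon bases with *Acad11*, a mitochondrial acyl-CoA dehydrogenase gene on the opposite strand. *Acad11* had 487 and 538 counts under Control and 1799 and 2674 under EtOH in WT, and 1003 and 731 under Control and 1300 and 1303 under EtOH in *Elf4*-/-. It rose by 1.41 ± 0.21 in WT (adjusted p = 0.00307, edgeR), and its part in the *Ackr4* values was not tested. *Ackr2*, which removes inflammatory CC chemokines, ranged from 1.12 to 4.94 CPM and passed no test. Summed over all receptors, the level was 46.4 to 50.3 CPM in WT Control, 93.4 to 96.4 in WT EtOH, 41.4 to 48.0 in *Elf4*-/- Control and 47.8 to 89.5 in *Elf4*-/- EtOH, of which *Ackr4* alone made up 65.5% to 75.7%.

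The 21 genes below a mean of 10 counts summed to 6.03 and 9.13 CPM under Control and 15.8 and 15.01 under EtOH in WT, and 8.18 and 8.01 under Control and 21.5 and 8.45 under EtOH in *Elf4*-/-. *Elf4*-/- EtOH replicate 1 was the highest of the 8 libraries in CPM for 9 of the 21, *Ackr3*, *Ccl3*, *Ccl4*, *Ccl7*, *Ccl22*, *Ccr1*, *Ccrl2*, *Cxcl2* and *Cxcl14*. It was the highest for 3 of the 19 tested genes, and so for 12 of all 40. The share of all genes that were highest in this library was not counted, so these counts are description only. *Cxcl2*, the neutrophil chemokine beside *Cxcl1*, had 19 counts there and 0 to 5 in each other library, 3.25 times the next in CPM. *Cxcl2* and *Ccl2* were the 2 genes with at least 10 counts in 1 library and at least 3 times the level of the next. *Ccl4*, a macrophage inflammatory protein gene, had 9 counts in that library and 3 or fewer in the others. The neutrophil genes *S100a8*, *S100a9*, *Retnlg* and *Csf3r*, 4 of the 8 on their list, summed to 17.4 CPM in this library, 6.08 in its replicate and 5.79 to 13.2 in the others. *S100a8*, *S100a9* and *Retnlg* had 26, 45 and 12 counts in this library and 5, 8 and 0 in its replicate. *Csf3r* went the other way, with 26 counts in this library and 33 in its replicate. *Retnlg* was at 0 in 4 libraries, *Elf4*-/- EtOH replicate 2 among them. The part of neutrophil content in these counts was not tested.

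**Figure D4:**
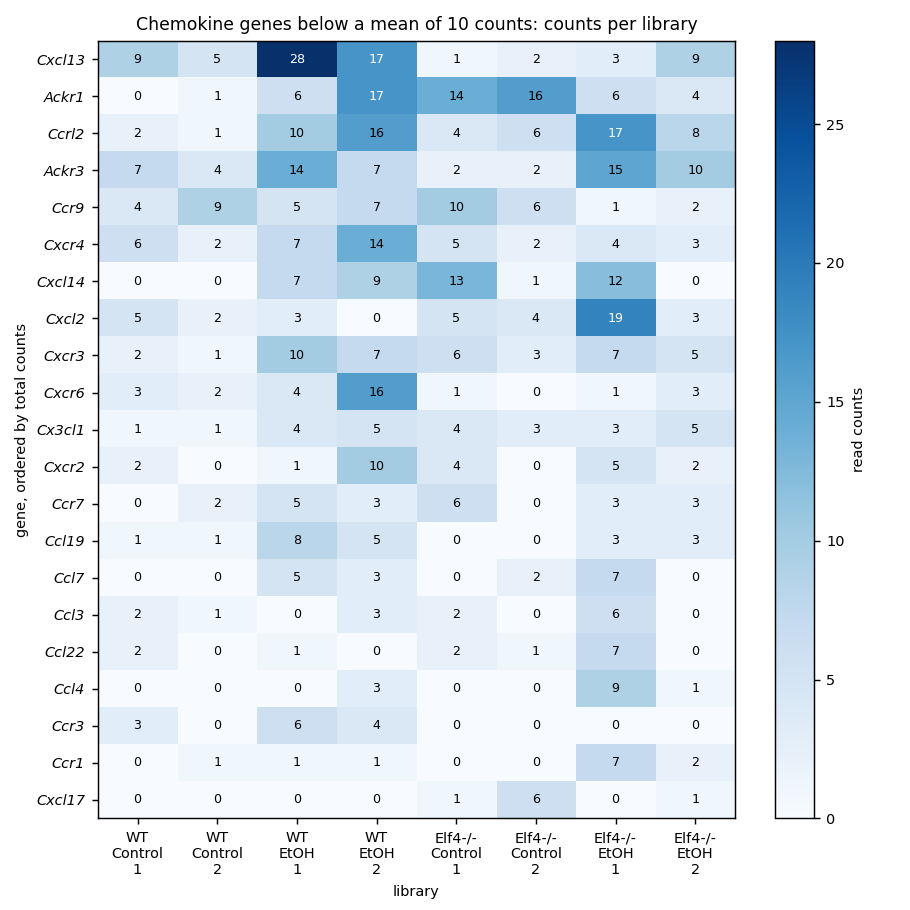
Read counts of the 21 chemokine genes below a mean of 10 counts (rows, ordered by total) in each of the 8 libraries (columns), with the count printed in each cell and darker blue for more counts. *Cxcl2* stands at 19 and *Ccl4* at 9 in *Elf4*-/- EtOH replicate 1, against 5 or fewer for *Cxcl2* and 3 or fewer for *Ccl4* in every other library.

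Other genes of chemokine biology were read from lists. Of 10 chemokine-family genes outside the symbol rule, 4 were tested, and *Gpr182* and *Cd74* rose with EtOH in WT. *Gpr182*, an endothelial scavenger of chemokines, rose by 2.34 ± 0.35 (SE) on the log2 scale, and *Cd74*, the receptor of MIF and the invariant chain of MHC class II, by 1.41 ± 0.38 (adjusted p = 0.00321 and 0.0278, edgeR). The level of 6 sinusoidal endothelial genes was 53.9 to 103 CPM in WT Control and 274 to 337 in WT EtOH, and its part in the *Gpr182* value was not tested. Of 28 genes that signal downstream of chemokine receptors, 25 were tested, and 4 were higher and 0 lower with EtOH in WT, beside 11.6% and 11.2% of all genes, with a median of 0.56 on the log2 scale beside 0.01 over all genes. *Arrb1*, an arrestin, rose by 1.48 ± 0.37, *Dock2*, which activates Rac in leukocytes, by 1.52 ± 0.41, and the Src family kinase gene *Lyn* by 0.84 ± 0.23 (adjusted p = 0.0195, 0.0273 and 0.0275, edgeR).

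Under EtOH, the median of these 25 genes in *Elf4*-/- against WT was -0.57 beside 0.00 over all genes, with 0 called, and *Clec4f* and *Cd5l* of the Kupffer cell list were called lower in this comparison. Of 15 genes of the NF-kB pathway and its targets, 13 were tested, and with EtOH in WT 2 were higher and 2 lower, beside the same shares of all genes. *Vcam1*, an adhesion molecule for lymphocytes and monocytes, rose by 2.38 ± 0.33, while *Selp*, which encodes P-selectin, fell by 2.28 ± 0.26 and the NF-kB subunit gene *Nfkb2* fell by 0.94 ± 0.25 (adjusted p = 0.00263, 0.00167 and 0.0254, edgeR). In *Elf4*-/-, 0 of the 42 tested genes on the 3 lists passed for diet, beside 3.28% of all genes. For genotype 0 passed, beside 0.145% of all genes under EtOH, 0.0152% under Control and 0.129% on average. For the interaction 0 passed, beside 0% of all genes.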

How the data were processed

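RNA was extracted from liver with Trizol and sequenced as paired-end reads on an Illumina HiSeq. According to the study's methods and the submitters' processing notes, the authors mapped reads to mm10 with HISAT2, processed alignments in SAMtools and assigned reads to genes in HTSeq. The annotation, versions and strand setting are not given in the sources used here. The deposited table holds raw read counts per gene symbol, 1 column per library, with 968 blank lines left out.

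All 8 libraries (6171051 to 9157362 counts) entered 1 model in edgeR 4.0.16 (R 4.3.3) with a factor of 4 groups, TMM scaling and the 13145 genes that averaged at least 10 counts, which held at least 99.64% of each library. The 7 contrasts used edgeR's quasi-likelihood test, with p-values adjusted by Benjamini-Hochberg across the 13145 genes and a threshold of 0.05. The common biological coefficient of variation was 22.4%. The script was tested on simulated counts.

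Gene positions, exon lengths and overlaps came from GENCODE M21 (GRCm38), in which all 40 genes matched by symbol, and this need not be the annotation used for counting. Promoter windows came from RefSeq, cut to the 250 bases before the start site.

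Values in each library are given for genes past the threshold in any contrast, the 3 smallest p-values per contrast, tested genes with a single-library spike, *Ccl2*, and the highest level per kilobase in each role group. Other genes are given by range, and up to 3 per pathway list by p. *Cxcl2*, *Ccl4*, *Ccl7*, *Cxcl9*, *Ccr2* and *Ccl25* were given values after these were seen. The genes and lists were chosen with earlier results of these data known. Of 59 chemokine and receptor genes on the role lists, 19 are not analysed here, and 1 further gene that meets the symbol rule was fitted with all genes and is not reported here. Lists of T, NK, B and dendritic cells, bile duct, mesothelium, pancreas, intestine, fat and red blood cells were summed as well, and their values are at the end.

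Alternatives were DESeq2 1.42.0, its size factors in edgeR, library totals, no filter, filterByExpr, robust dispersion, only the groups compared, the replicate number as a block, each library left out, and other spike and count limits.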

Additional observations from a re-analysis of the deposited data

Results flagged for a closer look

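For 4 genes the libraries of the 2 genotypes moved in opposite directions with diet, or those of the 2 diets with genotype, and in each the test of the difference did not pass. The share of all genes with such an order was not counted, so the 4 are listed as description only. *Cx3cr1* was higher with EtOH in WT and lower with EtOH in *Elf4*-/-, and higher in *Elf4*-/- under Control and lower under EtOH, with an interaction of -2.36 ± 0.83 (SE) on the log2 scale (adjusted p = 0.382, edgeR). Relative to the sum of the Kupffer cell genes, *Cx3cr1* was lower under EtOH in both genotypes. *Cxcl16* was higher in *Elf4*-/- than in WT under Control and lower under EtOH, with an interaction of -1.89 ± 0.51 (adjusted p = 0.287, edgeR). *Cxcl12* had the same order, with an interaction of -0.68 ± 0.35 (adjusted p = 0.555, edgeR).

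*Ccl25* ran the other way in both respects. It measured 14.0 and 12.4 CPM under Control and 10.1 and 10.6 under EtOH in WT, and 9.71 and 11.9 under Control and 13.9 and 14.0 under EtOH in *Elf4*-/-, with an interaction of 0.72 ± 0.33 (adjusted p = 0.502, edgeR). *Ccl25* shares 204 exon bases with *Elavl1* on the opposite strand, whose interaction was -0.36 ± 0.25 (adjusted p = 0.672, edgeR).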

How the results depend on the processing

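With all libraries of the groups compared kept, the count of chemokine genes called stayed at 6 to 7, beside 7, for diet in WT under 8 alternatives and at 7 to 9 for diet averaged over the genotypes under 7. DESeq2 called 2 where edgeR called 0 for genotype under EtOH, 3 where edgeR called 0 for diet in *Elf4*-/-, and 1 where edgeR called 0 for genotype averaged over diets. For diet in *Elf4*-/-, no filter and robust dispersion each called 1, *Cxcl10*. Leaving out each library in turn changed the number of chemokine genes called in every contrast but genotype under Control. The number called over all genes moved as well, and each such fit leaves 1 library in a group. Genotype under Control stayed at 0 calls throughout. Without *Elf4*-/- EtOH replicate 2 the interaction called *Cxcl1*. The cause of these differences was not tested. Of 37 pairs of gene and contrast followed, 33 kept their sign in every setting. Leaving out single libraries turned the sign of *Cxcl16* (-0.080 to 0.055) and *Cxcl11* (-0.60 to 0.65) for diet in *Elf4*-/-, and of *Ccl2* for genotype under EtOH (-6.25 to 3.87) and for diet in *Elf4*-/- (-5.01 to 7.81), where a group without counts makes the fitted value no bound. Single-library spikes numbered 2, or 4 at 2 times the next library and 0 at 5 times. Limits of 5 and 20 mean counts left 28 and 15 genes. Library totals in place of TMM shifted the median of all genes to 0.43 on the log2 scale for diet in WT, 0.24 for genotype under Control, -0.23 for genotype under EtOH, 0.20 for diet averaged over genotypes and -0.46 for the interaction. With a replicate block the test called 6 genes for diet in WT, losing *Ccl27a*, 7 for diet averaged over genotypes and 0 in the other 5 contrasts. The replicate numbers only name the libraries, and deviations of same-numbered libraries had correlations of -0.134 to 0.114 over 9398 genes. Low counts limit the 21 scarce genes, which were not tested with the filter at 10 mean counts, and of these *Ccrl2* was called for diet averaged over genotypes with no filter and with filterByExpr. *Ccl2* was called for diet in *Elf4*-/- and on average without *Elf4*-/- EtOH replicate 2.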

Other observations

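Levels of other cell types give the setting of the receptor genes that were too scarce to test. The summed level of 8 T cell genes was 6.89 and 7.31 CPM under Control and 8.62 and 12.4 under EtOH in WT, and 10.5 and 5.49 under Control and 5.26 and 7.66 under EtOH in *Elf4*-/-, and *Cxcr3* and *Cxcr6*, receptors of activated T cells, had 1 to 10 and 0 to 16 counts per library. The 6 NK cell genes summed to 0.920 to 1.64 CPM in all Control libraries and 4.14 to 6.74 in all EtOH libraries. These sums rest on few counts, and none of the 6 was tested. *Gzma* had 0 to 2 counts per library under Control and 11 to 32 under EtOH, and *Klrb1c* 0 to 1 and 3 to 8. *Ncr1* and *Prf1* had 0 to 3 counts in every library, with overlap between the diets. The 5 B cell genes ranged from 2.55 to 10.9 CPM and the 5 dendritic cell genes from 9.14 to 32.2 CPM, with WT Control and WT EtOH overlapping for B cells. In WT, stellate cell genes summed to 131 and 49.0 CPM under Control and to 363 and 510 under EtOH.

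Lists for other tissues were summed in the same way. Bile duct genes ranged from 5.19 to 10.99 CPM, mesothelial genes from 0.365 to 7.61, the 1 pancreatic gene in the table from 2.76 to 9.05, the 1 adipose gene from 0 to 1.12, red blood cell genes from 87.2 to 228, and the 3 intestinal genes in the table from 164 to 256.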
